A study of Mus musculus with 12 samples.

Results

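Angiotensin II (Ang II) is a peptide hormone that raises blood pressure, and T cells are among the immune cells through which it is known to act on the vessel wall. The series measured RNA from splenic T cells of 12-week-old male mice, either wild-type (WT, C57BL/6) or carrying a global deletion of miR-214 (miR-214-/-), after 14 days of infusion through an osmotic minipump with vehicle (sham) or with Ang II at 490 ng/kg per day. Each of the 4 groups held 3 mice and 1 library per mouse. The deletion was present in every cell of the miR-214-/- animals, so it was not specific to T cells, and the T cells were enriched by negative magnetic selection. The comparison described here is the effect of Ang II over both genotypes: all 12 of 12 libraries, 6 Ang II against 6 sham, with genotype as a covariate and no interaction term. It asks which genes moved with Ang II whether or not the mouse had miR-214. Of 16770 genes with enough reads to test, 502 were called.

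A naive T cell is a small resting cell. Transcription factors such as Lef1, Satb1 and Foxp1 and the IL-7 receptor maintain that state. When a T cell is activated it leaves quiescence, copies its DNA and divides, and the genes of DNA replication and mitosis are transcribed in successive waves. The mouse spleen is also a site of blood formation, where red-cell precursors, granulocyte precursors and monocytes sit beside the lymphocytes. In a bulk library, more cells of a type cannot be told apart from more RNA per cell.

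The mature RNAs that the miR-214-/- mice lack come from mouse chromosome 1. They are shown, from RefSeq on GRCm38.p6, with the seed (bases 2 to 8) in capitals, because the genotype term of the model stands for their absence.
mmu-miR-214-3p: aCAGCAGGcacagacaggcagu
mmu-miR-214-5p: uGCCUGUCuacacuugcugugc
The Mir214 gene had 0 reads in all 12 libraries, whose preparation selected polyadenylated RNA, so these counts do not check the genotype labels.

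Total counts per library ran from 21126874 to 29605988. Genes of T cell identity (Cd3e, Cd28, Lat and others, 20 of 20 tested) summed to between 5826 and 10038 CPM (read counts scaled to library size by edgeR's TMM method) in every library, and T cells were therefore present in all of them. Markers of other cells were present too. The 26 red-cell precursor genes summed to between 602.6 and 1705 CPM in the sham libraries and between 954.6 and 6872 CPM in the Ang II libraries. The 18 neutrophil granule genes summed to between 254.4 and 1175 CPM after sham and between 728.1 and 3890 CPM after Ang II. For B cell genes the ranges were 416.4 to 2684 CPM and 556.1 to 4677 CPM. The part of these cells in the results below was not tested. Some results are also given without the pair of libraries richest in globin mRNA, or with the red-cell level as a covariate. That pair was not the richest in other red-cell genes. For B cell genes it was not the richest by summed CPM. By mean log2(CPM + 1), however, its miR-214-/- Ang II replicate 2 was the highest of all libraries, at 5.83.

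A gene was called when edgeR's quasi-likelihood test gave a Benjamini-Hochberg adjusted p under 0.05 and the fitted change was more than 2-fold, which is 1 on the log2 scale. By this rule 473 genes were higher after Ang II, 2.82% of the genes tested, and 29 were lower, 0.173%. With the adjusted p alone the directions were nearly balanced, at 1368 genes higher (8.16%) and 1294 lower (7.72%), so the imbalance lies in the size of the changes. Leaving out 1 library moved the count of higher genes between 132, without WT sham replicate 2, and 761, without miR-214-/- Ang II replicate 3, and that of lower genes between 16, without WT Ang II replicate 3, and 41, without miR-214-/- Ang II replicate 2. Changes within each genotype came from 1 fit of all 12 libraries with a mean for each of the 4 groups. All 473 and all 29 had the same sign of change in WT and in miR-214-/- mice, against 65.6% of all genes tested. A main effect favours such genes by construction, and this count is a description of what was selected.

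The genes called higher and the genes called lower differed in how they split between the genotypes. Among the 473 higher genes the median log2 change was 2.06 in WT and 0.75 in miR-214-/- mice, and in 129 of them the miR-214-/- change was at least 0.5 of the WT change. Among the 29 lower genes the medians were -1.15 and -1.15, and in 28 of them the miR-214-/- change was at least 0.5 of that in WT. The test of the difference itself, the interaction of Ang II with genotype, had an unadjusted p under 0.05 in 255 of the 473 higher genes and in 1 of the 29 lower genes, beside 14.8% of all genes tested. After adjustment over all genes only 1 gene, Frmd4a, had an interaction adjusted p under 0.05, and it was not among the 502.

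**Figure D1:**
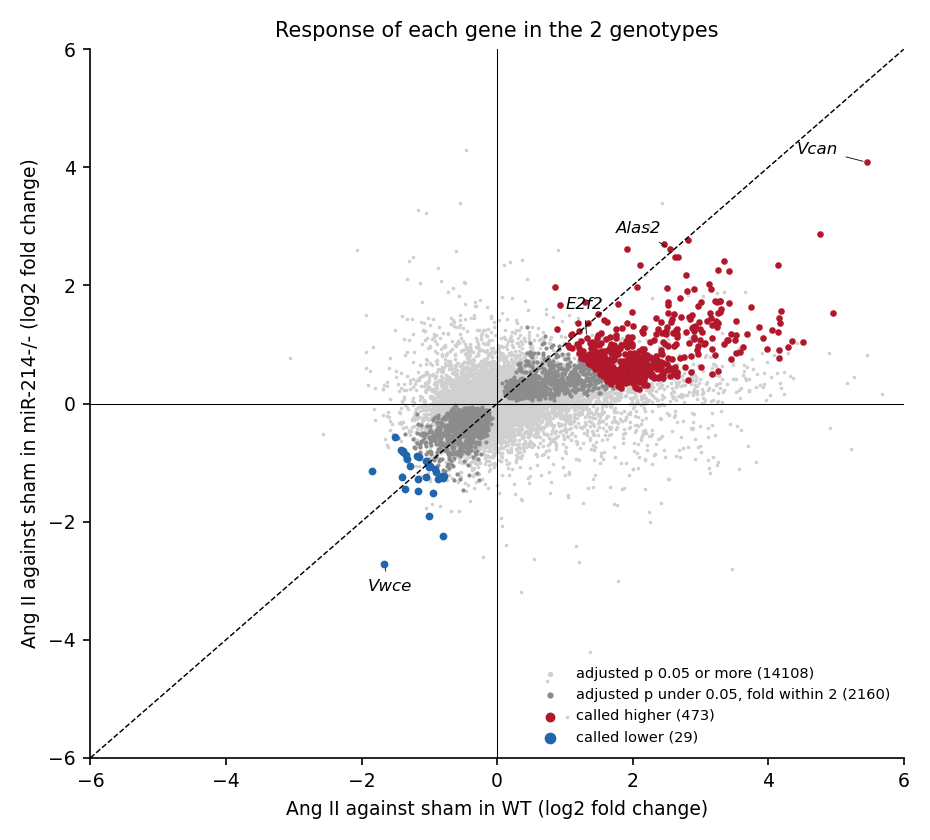
Each point is 1 gene tested, with its log2 fold change after Ang II in WT mice on the horizontal axis and in miR-214-/- mice on the vertical axis. Red marks the 473 genes called higher, blue the 29 called lower, dark grey the other 2160 with an adjusted p under 0.05 and light grey the remaining 14108. The dashed line marks equal change. The red points lie mostly to the right of that line, with a larger change in WT, whereas the blue points lie around it. 8 genes fall outside the axes.

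The spread between mice also differed. A gene was counted as separated when, in each genotype, all 3 Ang II libraries lay on the same side of all 3 sham libraries. This held for 137 of the 473 higher genes and for 20 of the 29 lower genes. Of all tested genes, 3.6% were separated upward and 5% downward. By adjusted p alone, 552 of 1368 higher and 754 of 1294 lower genes were separated. Calling by p from the same libraries favours separated groups, so these counts describe the selection. Among genes with an average of at least 1 log2 CPM, the median standard deviation within groups was 0.45 log2 units for 359 higher genes, 0.29 for 6 lower genes and 0.15 for all 12455 tested. In WT mice the highest of the 3 Ang II libraries was replicate 1 for 254 of the 473 higher genes, beside 6277 of all 16770 tested. In miR-214-/- mice it was replicate 1 for 257 and replicate 3 for 43, beside 5969 and 5344 of all tested.

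E2f2 (chr4:136172394-136196057, GRCm38) was the gene called higher with the smallest p, and it was singled out for that reason after its values were seen. It encodes a transcription factor of the E2F family, which governs entry into S phase. In WT mice it stood at 37.9, 31.7 and 44.4 CPM after sham and at 112, 88.1 and 84.9 CPM after Ang II. Without miR-214 the sham values were 35.7, 30.1 and 43.2 CPM and the Ang II values 77.4, 91.0 and 66.1 CPM. The groups did not overlap in either genotype, and each Ang II value was above every sham value of both genotypes. The log2 change was 1.21 ± 0.12 (SE), with 1.32 in WT and 1.10 in miR-214-/- mice and an adjusted p of 0.0024.

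The other 3 genes of smallest p changed less and were more even across mice. Their standard deviation within groups was 0.058 to 0.099 log2 units, against 0.23 for E2f2. Copg2, a subunit of the COPI vesicle coat, rose in WT mice from 36.2 ± 2.3 to 51.7 ± 1.2 CPM (SD, n = 3) and in those without miR-214 from 36.1 ± 1.2 to 50.1 ± 1.7 CPM. Mib2, an E3 ubiquitin ligase of the Notch pathway, fell from 69.0 ± 4.9 to 47.4 ± 3.0 CPM and from 71.3 ± 5.3 to 45.5 ± 1.2 CPM. Ipcef1 fell from 394 ± 16 to 250 ± 9.4 CPM and from 432 ± 16 to 297 ± 35 CPM. Their log2 changes were 0.49, -0.60 and -0.60 (edgeR adjusted p from 0.0018 to 0.0024), too small for the 2-fold rule.

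The genes named next are those that, among genes with an average of at least 1 log2 CPM and an adjusted p under 0.05, had the largest smaller-of-2 change when both genotypes were considered. Upward, 12 genes came first, and 11 of them are described. Vcan (chr13:89655312-89742509, GRCm38), which encodes the matrix proteoglycan versican and is expressed by monocytes, led by a wide margin. Its raw counts were 1, 0 and 4 in WT sham and 89, 12 and 157 in WT Ang II libraries, and 8, 6 and 5 against 11, 165 and 163 in miR-214-/- mice. Neither genotype's groups overlapped, yet WT replicate 2 and miR-214-/- replicate 1 rose far less than the other Ang II mice. The log2 change was 4.59 ± 0.84 (SE, adjusted p = 0.0092), and the adjusted p stayed under 0.05 in all 12 fits that left out 1 library.

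Most of the others belong to red cells or granulocytes. The globin genes, Alas2, Camp, Rsad2 and Apol11b were highest in 1 pair of Ang II libraries. Hbb-bs, an adult beta-globin, stood at 214.2, 127 and 187 CPM in WT sham and at 2147, 572 and 190 CPM in WT Ang II libraries. In miR-214-/- mice it stood at 117, 121 and 120 CPM after sham and at 113, 1977 and 228 CPM after Ang II. WT replicate 1 and miR-214-/- replicate 2 were thus far above all other libraries, and miR-214-/- replicate 1 lay below its sham controls. The fitted change was 2.58 ± 0.69 (SE, adjusted p = 0.029). Alas2, the erythroid enzyme that starts haem synthesis, followed the same libraries, with 264, 76.7 and 28.9 CPM in WT Ang II and 16.8, 224 and 27.6 CPM in miR-214-/- Ang II mice, against 13.3 to 25.8 CPM in the 6 sham mice. Its groups did not overlap in either genotype, by a narrow margin in WT replicate 3 and miR-214-/- replicate 1. Hbb-bt and Hba-a1, further globin genes, had the same pair of libraries highest. Globin genes are near-identical copies of each other, and their reads may have been split between them.

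The antimicrobial peptide gene Camp and the genes Ear1 and Ear2 of eosinophil-associated ribonucleases, Itgb2l, Apol11b and the interferon-stimulated gene Rsad2 complete the 11, with log2 changes from 2.25 to 2.83. Camp reached 157 and 167 CPM in the same WT replicate 1 and miR-214-/- replicate 2, against 12.3 to 43.0 CPM in the other 4 Ang II mice and 3.72 to 25.8 CPM in the sham mice. For Ear1 and Ear2, which are close paralogs, the highest miR-214-/- library was replicate 1 instead, at 46.6 and 43.9 CPM. Itgb2l, too, was highest there, with 6.44, 4.99 and 0.83 CPM in miR-214-/- and 8.19, 1.89 and 6.18 CPM in WT Ang II mice. Rsad2 was the only other gene of the 11, besides Vcan, Alas2 and Hbb-bt, whose groups did not overlap in either genotype. Its margin was narrow in WT, at 10.6 CPM in Ang II replicate 3 against 10.1 CPM in sham replicate 3. It reached 130 and 70.3 CPM in WT replicate 1 and miR-214-/- replicate 2. Olfm4, a neutrophil granule gene named for the size of its change, changed by 4.17 in WT and by 1.37 in miR-214-/- mice on the log2 scale.

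Without WT Ang II replicate 1 and miR-214-/- Ang II replicate 2, the pair with the most globin mRNA, Vcan had a log2 change of 4.48 (adjusted p = 0.022). That of Rsad2 went from 2.36 to 1.06 (adjusted p = 0.038) and that of Hbb-bs from 2.58 to 0.82. Apart from Vcan and Rsad2, the 10 genes described, Olfm4 included, had the same direction but adjusted p between 0.053 and 0.16. In all, 439 genes were called higher without that pair, of which 289 were among the 473, and 57 lower. With 1 library left out, Rsad2 passed the adjusted p in 8 of 12 fits, not in those without WT sham replicate 1, 2 or 3 or miR-214-/- Ang II replicate 2 (adjusted p from 0.050 to 0.064), and the 10 other genes passed in 3 (Ear1) to 9 (Alas2) of the 12.

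**Figure D2:**
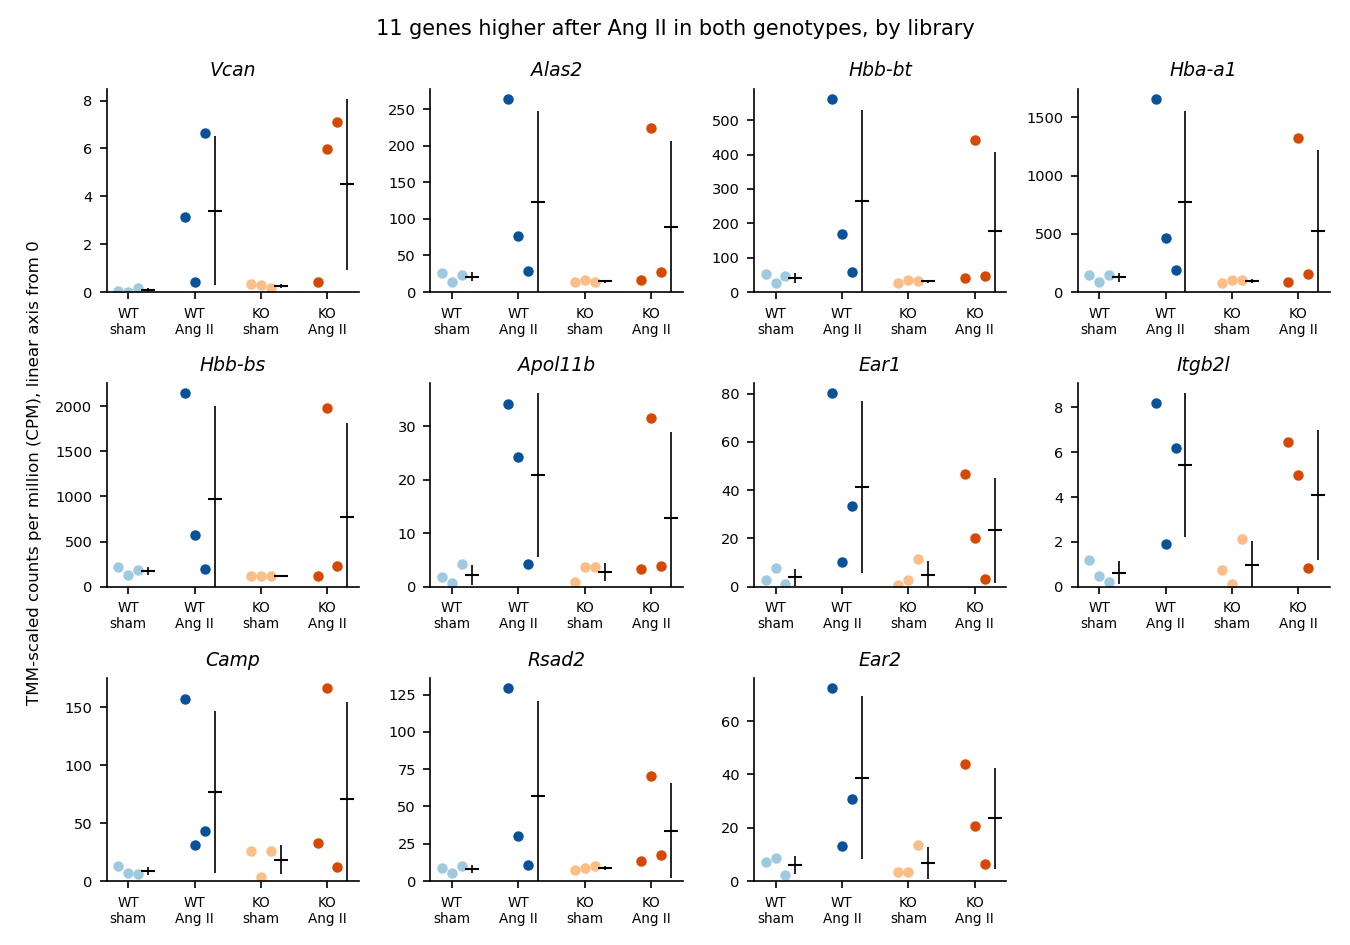
CPM of the 11 described higher genes in each library, on linear axes from 0, for WT sham, WT Ang II, miR-214-/- (KO) sham and KO Ang II mice, with replicates 1 to 3 from left to right in each group. Bars give the mean and SD of 3 libraries. For Hbb-bs the 2147 CPM of WT replicate 1 and the 1977 CPM of KO replicate 2 stand above all other libraries, and in 7 of the 11 panels the same pair is the highest of its genotype.

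Mitosis was the list with the largest share of genes called higher, and its rise was present in every WT mouse. Of its 25 genes (cyclins, spindle kinases, kinesins and checkpoint proteins) all 25 passed the adjusted p and 21 passed the 2-fold rule as well, beside 2.82% of all genes. The median log2 change was 1.36, made of 2.19 in WT and 0.55 in miR-214-/- mice, beside a median of 0.00032 over all genes tested. Ccnb2, cyclin B2, which drives cells into mitosis, stood at 8.64, 9.84 and 11.5 CPM in WT sham and at 43.4, 55.2 and 53.0 CPM in WT Ang II libraries. Without miR-214 the values were 14.2, 19.0 and 18.8 CPM after sham and 39.9, 18.3 and 21.8 CPM after Ang II. The WT groups were far apart, whereas in miR-214-/- mice replicate 1 lay far above the sham range, replicate 3 just above it and replicate 2 inside it. Its log2 change was 1.47 ± 0.32 (SE, adjusted p = 0.014).

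The same form held for the list as a whole. Only Mki67, the Ki-67 proliferation marker, and Cenpe, a centromere motor, did not overlap in either genotype, beside 3.6% of all genes separated upward. All 25 genes had a smaller change in miR-214-/- mice, with an unadjusted interaction p under 0.05 in 25 of 25, beside 14.8% of all genes. Without the pair of libraries with the most globin mRNA, 22 of the 25 were called and the median was 1.55. Without miR-214-/- Ang II replicate 1, the one mouse of that group with a high level, 9 were called and the median was 1.28, and without WT sham replicate 2 the number was 7, with a median of 1.28. With the mean red-cell level as a covariate the median was 0.40, and none of the 25 was called by edgeR, with 8 at an unadjusted p under 0.05. The DNA replication list had 9 of 30 genes called higher, beside 2.82% of all genes, and 18 by adjusted p alone, beside 8.16%. It was led by Rrm2, a subunit of ribonucleotide reductase, at 1.56, and its medians were 1.38 in WT and 0.33 in miR-214-/- mice.

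Promoters of these co-ordinately higher genes are shown because many share a sequence. CCAAT, the box bound by NF-Y, was sought on either strand within 250 bases upstream of the start site. It occurred in 16 of the 19 mitosis genes with a RefSeq promoter (84.2%), against 39.9% of 11148 tested genes. Counted over single promoters, an unlike measure, the share was 33.8% of all RefSeq promoters. A gene was counted if any of its promoters held the box. The 4 genes of the list with the largest change among those that hold it are given, each with the box in capitals and 12 bases on either side, on the strand of the gene (GRCm38.p6). ATTGG is the same box on the other strand.
Ccnb1, chr13:100786537-100786565, minus strand: gccacgaactggCCAATgaggagcgagcg
Ccnb2, chr9:70421592-70421620, minus strand: cttccagtctagCCAATgggttgcgcgcg
Cdk1, chr10:69352944-69352972, minus strand: acgtgcaatcggATTGGcggatcccggga
Mki67, chr7:135716504-135716532, minus strand: tggccgcctggcCCAATcgcagcacttag
Among the DNA replication genes, 15 of 24 held CCAAT (62.5%). TTCCCGC, an E2F core, occurred in 6 of those 24 (25.0%) and in 0 of the 19 mitosis genes, against 7.78% of tested genes. Over all 372 called higher genes with a promoter the shares were 45.7% for CCAAT and 8.06% for TTCCCGC, close to those of all tested genes.

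Red-cell precursor genes had larger changes and were far less even. Of 26 tested genes (28 listed), 9 were called higher, beside 2.82% of all genes. The median log2 change was 1.98, with 3.31 in WT and 0.43 in miR-214-/- mice. All 26 were higher on average in both genotypes, but only Hbb-bt had no overlap in either, beside 3.6% of all genes separated upward. An unadjusted interaction p under 0.05 was found in 21 of the 26, beside 14.8% of all genes. The 4 globin genes and the other 22 members followed different mice. Globin mRNA summed to 4756, 1264 and 450.2 CPM in the WT Ang II libraries and to 255.2, 4041 and 453.5 CPM in those of miR-214-/- mice, while the mean log2(CPM + 1) of the 22 others was 6.09, 7.22 and 6.77 in WT and 6.26, 5.23 and 3.99 in miR-214-/- mice. The sham means of the 22 were 3.16 to 3.89 in WT and 3.45 to 5.55 in miR-214-/- mice, so WT groups were apart and miR-214-/- groups overlapped. Slc4a1, the band 3 anion exchanger of the red-cell membrane, changed by 4.14 in WT and by 1.22 in miR-214-/- mice on the log2 scale. Without the pair of libraries with the most globin mRNA 2 of the 26 were called, without WT sham replicate 2 there was 1, and without miR-214-/- Ang II replicate 3 there were 21.

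AGATAA, a form of the GATA site, was found on either strand upstream of 7 of 18 red-cell genes with a promoter (38.9%). Among tested genes it was found in 7.65%. Counted over single promoters, it was found in 9.99% of all RefSeq promoters. It is shown in capitals for genes described here, with TTATCT as its form on the other strand. Hbb-bs and Trim10 are 2 of those 7, and Alas2 belongs to the haem synthesis list, where 1 of 8 genes held it (12.5%).
Alas2, chrX:150547319-150547348, plus strand: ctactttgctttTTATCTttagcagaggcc
Hbb-bs, chr7:103828121-103828150, minus strand: tgttctctgcacAGATAAggacaaacatta
Trim10, chr17:36869399-36869428, plus strand: agctcaagagccTTATCTgagtccccacac
Trim10, an erythroid RING-finger gene of the list, changed by 3.86 in WT and by 1.29 in miR-214-/- mice on the log2 scale.

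Neutrophil granule genes were called higher in 14 of 18 cases, beside 2.82% of all genes, with medians of 3.15 in WT and 1.26 in miR-214-/- mice. They covered both early granule proteins (Mpo, Elane, Prtn3, Ctsg) and late ones (Ltf, Lcn2, Camp, Ngp). Lcn2, lipocalin 2, stood at 203, 51.9 and 69.8 CPM in WT and at 36.5, 204 and 24.4 CPM in miR-214-/- Ang II libraries, against 9.17 to 11.8 and 6.27 to 46.4 CPM after sham. WT groups were apart and miR-214-/- groups overlapped. Prtn3, Ctsg and Ms4a3 were the 3 members with no overlap in either genotype, beside 3.6% of all genes separated upward. Without the pair of libraries with the most globin mRNA, 5 of the 18 were called and the median was 1.34 in place of 2.23, and without WT sham replicate 2 there were 3 calls.

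Monocyte genes were less strongly but more evenly higher in the 2 genotypes, with medians of 1.30 and 0.77. Of 16 genes, 8 were called (5 to 8 when 1 library was left out), beside 2.82% of all genes. Chil3, F10, F13a1, Ccr2 and Vcan had no overlap in either genotype, beside 3.6% of all genes separated upward. Ccr2, the receptor that takes monocytes and activated T cells to sites of inflammation, stood at 86.7, 73.2 and 78.6 CPM in WT sham and at 320, 120 and 183 CPM in WT Ang II libraries. In miR-214-/- mice it stood at 132, 70.7 and 98.4 CPM after sham and at 161, 173 and 240 CPM after Ang II. Its log2 change was 1.16 ± 0.23 (SE, adjusted p = 0.011), with 1.38 in WT and 0.93 in miR-214-/- mice. Ccr1, at 1.65, was the other gene called among 18 chemokine receptors, with 2.42 in WT and 0.90 in miR-214-/- mice. Of 6 NADPH oxidase genes 2 were called, among them Cybb, which encodes the catalytic subunit of the phagocyte enzyme, at 1.22.

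Whether the mitosis and monocyte genes came from T cells or from the precursor cells whose markers moved with them was not tested. T cell identity genes moved the other way: 5 of 20 were lower by adjusted p in edgeR, beside 7.72% of all genes. By DESeq2 there were 7, and 13 of 20 had an unadjusted p under 0.05 in edgeR. None passed the 2-fold rule by either tool, and the medians were -0.54 in WT and -0.03 in miR-214-/- mice. The change was above 0 in 0 of 20 genes in WT and in 6 of 20 in miR-214-/- mice. The interaction had an unadjusted p under 0.05 in 14 of the 20, beside 14.8% of all genes.

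**Figure D3:**
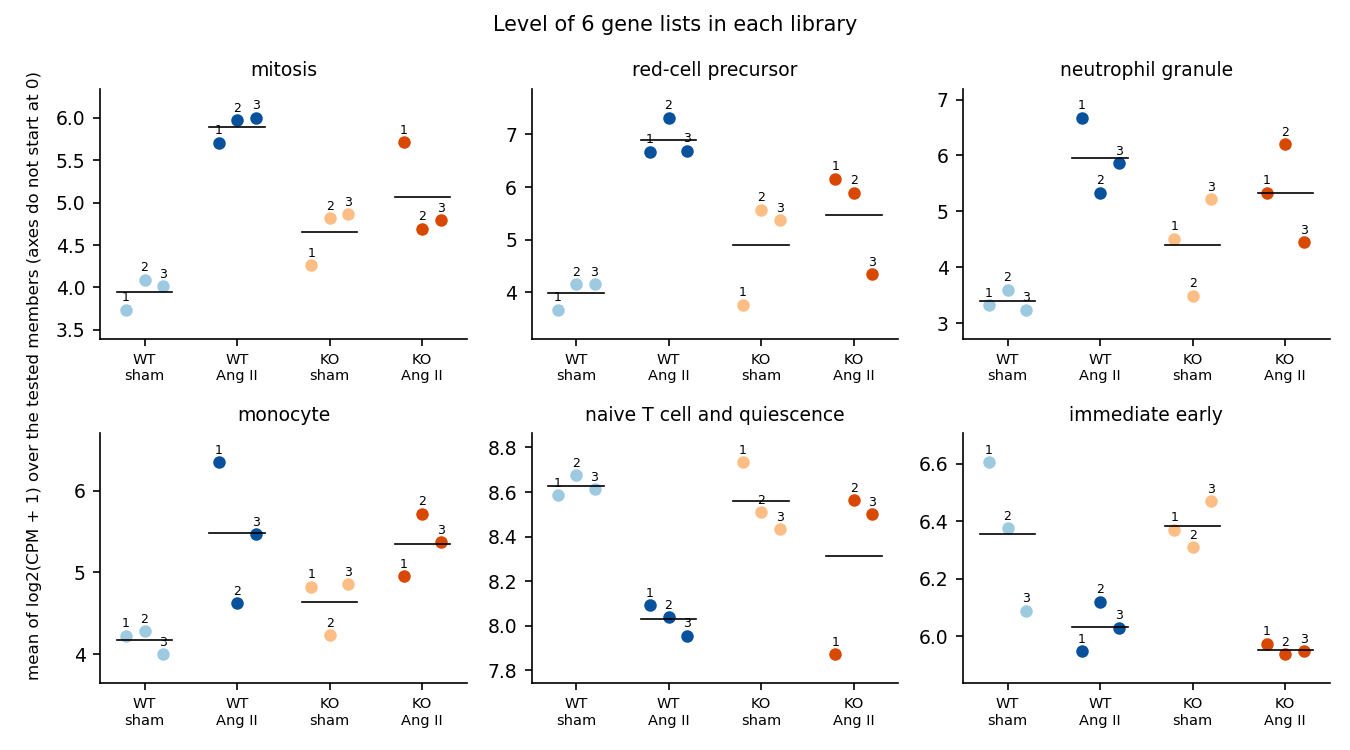
Mean of log2(CPM + 1) over the tested members of 6 gene lists in each library, with the replicate number above each point and a line at the group mean. The axes do not start at 0. Mitosis is high in all 3 WT Ang II mice and in replicate 1 of the KO Ang II mice, with 21 of its 25 members called. The naive list is low in the same 4 mice, at 7.87 in KO Ang II replicate 1.

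Genes called lower were fewer, smaller in change and more alike between mice and genotypes. With the 2-fold rule they were also of a different kind: 12 of the 29 were protein-coding (41.4%). This compares with 449 of the 473 higher genes (94.9%) and 78.9% of all genes tested. The rest of the 29 were long non-coding, antisense, pseudogene or yet unproven transcripts, and some overlap another gene or each other. By adjusted p alone, 85.3% of the 1294 lower and 96.6% of the 1368 higher genes were protein-coding. The median average level of the 29 was -0.22 log2 CPM, against 2.93 for the 473 higher genes. The genes named here are the 12 with an average of at least 1 log2 CPM and the largest smaller-of-2 fall. All 12 had no overlap in either genotype, beside 5% of all tested genes separated downward. All 12 kept an adjusted p under 0.05 in each of the 12 fits that left out 1 library. They were chosen by their adjusted p and their fall in both genotypes, which favours both traits, so these counts describe the selection. With the mean red-cell level of each library as a further covariate, the 12 changes were -0.78 to -2.80 with adjusted p from 0.062 to 0.11, and edgeR called no gene higher, against 473 without the covariate, with 210 past 2-fold at an unadjusted p under 0.05.

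Pde3b (chr7:114415281-114539251), the phosphodiesterase 3B that degrades cyclic AMP, was the most abundant of those called. It stood at 170, 223 and 194 CPM in WT sham and at 118, 103 and 91.8 CPM in WT Ang II libraries. Without miR-214 the values were 235, 331 and 253 CPM after sham and 87.8, 128 and 152 CPM after Ang II. Every Ang II value lay below every sham value of either genotype. The log2 change was -1.03 ± 0.14 (SE, adjusted p = 0.0060), with -0.91 (95% interval -1.34 to -0.48) in WT and -1.16 (-1.59 to -0.72) in miR-214-/- mice.

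Tagap (chr17:7926000-7934897), a GTPase-activating protein gene induced in activated T cells, stood at 235, 209 and 246 CPM in WT sham and at 110, 154 and 104 CPM after Ang II. In miR-214-/- mice it stood at 229, 186 and 229 CPM after sham and at 89.5, 126 and 128 CPM after Ang II. The 6 Ang II values again lay below all 6 sham values. The log2 change was -0.91 ± 0.12 (SE, adjusted p = 0.0056), and the estimates were -0.91 in both genotypes. E430024P14Rik, an antisense transcript over Tagap on chromosome 17, fell by 1.03 on the log2 scale. The strand setting of the authors' counting is not given in the sources used here, so reads of this pair cannot be told apart.

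Vwce (chr19:10634213-10666213), with von Willebrand factor C and EGF domains, had the largest fall. WT mice went from 3.11 ± 1.48 to 0.98 ± 0.24 CPM and miR-214-/- mice from 4.62 ± 3.10 to 0.70 ± 0.23 CPM (SD, n = 3). Its log2 change was -2.19 ± 0.39 (SE, adjusted p = 0.0082). Actn2, a muscle-type alpha-actinin, fell from 9.73 ± 0.58 to 4.88 ± 1.81 CPM and from 10.7 ± 0.75 to 5.15 ± 1.65 CPM. Bambi-ps1, a processed pseudogene whose reads may be shared with its parent gene, and the lincRNA Gm26583 fell by 1.04 each on the log2 scale.

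The remaining 6 named genes passed the adjusted p and narrowly missed 2-fold, from -0.89 to -0.99. They were the lincRNA A930002I21Rik, Cnga1 of a cyclic-nucleotide-gated channel, Gprc5b of an orphan receptor, Tagap, and the unconfirmed transcripts E430014B02Rik and C230085N15Rik. The last pair lies on chromosome 17 inside the span of Satb1 and on its strand. Reads of that pair may thus be those of Satb1 transcripts, which was not tested. Satb1 itself, a chromatin organiser of T cells, stood at 591, 624 and 627 CPM in WT sham and at 394, 375 and 388 CPM in WT Ang II libraries. Without miR-214 it stood at 718, 712 and 610 CPM after sham and at 378, 573 and 580 CPM after Ang II. No groups overlapped, though miR-214-/- replicates 2 and 3 lay just under their controls, and the log2 change was -0.54 ± 0.11 (SE, adjusted p = 0.011).

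**Figure D4:**
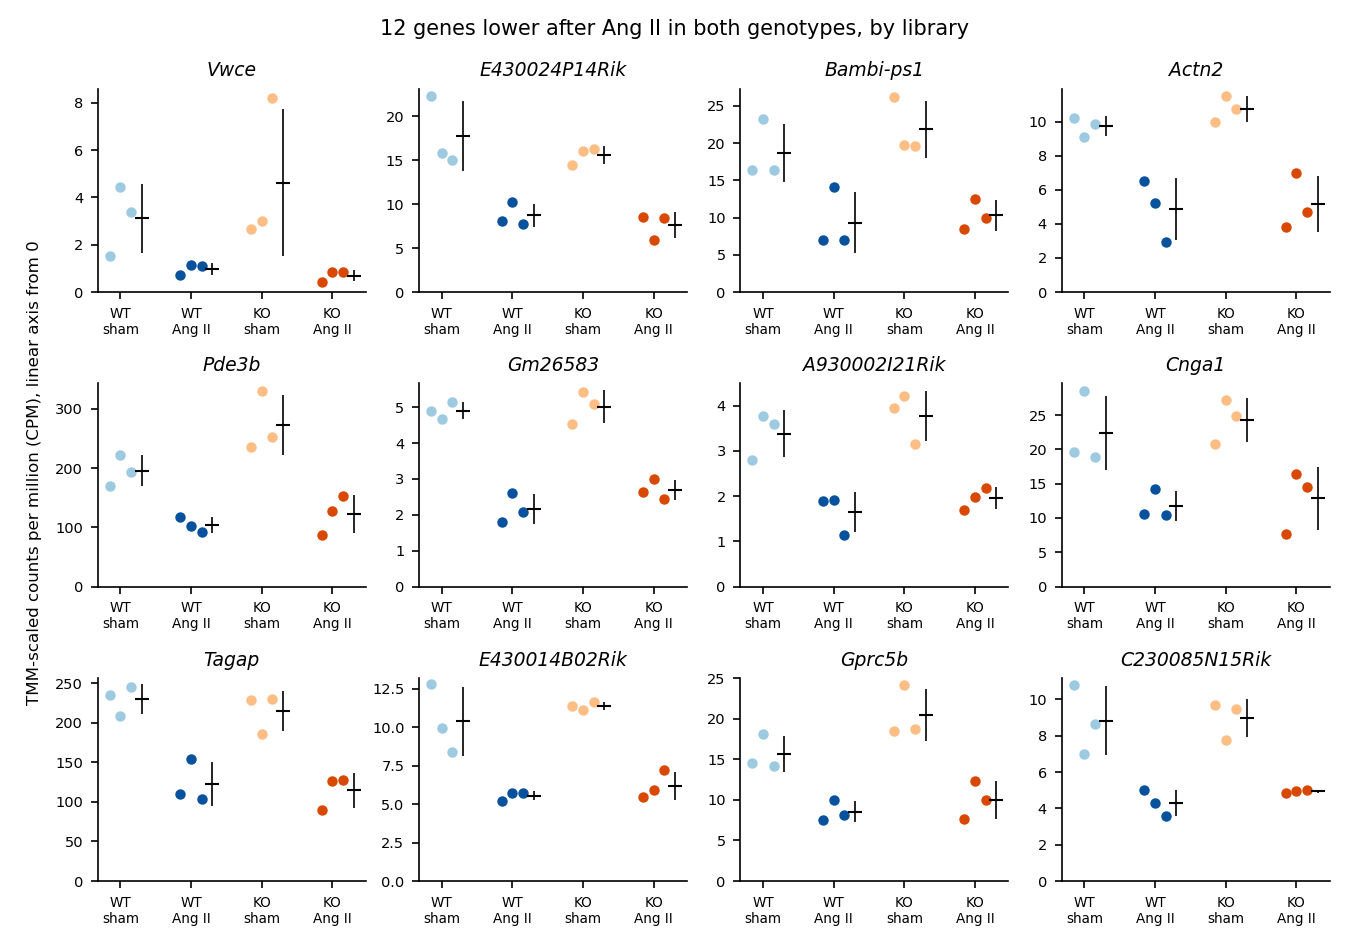
CPM of the 12 named lower genes in each library, on linear axes from 0, with the groups, replicate order and bars (mean and SD of 3 libraries) as in the plot of named higher genes. In each panel the 3 Ang II libraries of a genotype lie below its 3 sham libraries, as for Pde3b, at 91.8 to 118 CPM against 170 to 223 CPM in WT.

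Immediate early genes, transcription factors and feedback regulators switched on within minutes of a stimulus, gave the list whose fall was closest in the 2 genotypes. Of 23 genes, 7 were lower by adjusted p (Jun, Junb, Jund, Ier2, Klf6, Btg2 and Dusp1), beside 7.72% of all genes, and none was higher. The medians were -0.40 in WT and -0.30 in miR-214-/- mice. Jun, a subunit of AP-1, stood at 358, 298 and 247 CPM in WT sham and at 160, 165 and 156 CPM in WT Ang II libraries. In miR-214-/- mice it stood at 275, 249 and 318 CPM after sham and at 187, 175 and 161 CPM after Ang II. All 6 Ang II values lay below all 6 sham values, and the log2 change was -0.80 ± 0.09 (SE, adjusted p = 0.0056). Junb was lower by the same amount, -0.80. WT mice went from 785 ± 137 to 396 ± 22 CPM and miR-214-/- mice from 740 ± 97 to 487 ± 70 CPM. Fos and Nr4a1, at -0.57 and -0.57, did not pass.

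Genes of the naive and quiescent state were lower in 8 of 15 cases by adjusted p (Satb1, Lef1, Foxp1, Tob1, Il7r, Klf2, Btg1 and Ccr9), beside 7.72% of all genes. The medians were -0.64 in WT and -0.25 in miR-214-/- mice. In 6 of the 15 there was no overlap in either genotype, beside 5% of all genes separated downward. Tob1, an antiproliferative gene of resting T cells, fell by 0.69 on the log2 scale, with -0.64 in WT and -0.74 in miR-214-/- mice. Il7r gave -0.54 and -0.78. Lef1 gave -0.68 and -0.36. Ccr7 and Tcf7 did not pass, at -0.45 and -0.32. The list level, as mean log2(CPM + 1), was 7.87 in miR-214-/- Ang II replicate 1 and 8.56 and 8.50 in replicates 2 and 3, against 8.43 to 8.73 after sham, so at the level of the list only replicate 1 was below its controls. Heat shock chaperones were lower in 5 of 15 cases, beside 7.72% of all genes, led by Hsph1 at -0.98. Their medians were -0.23 in WT and -0.45 in miR-214-/- mice.

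**Figure D5:**
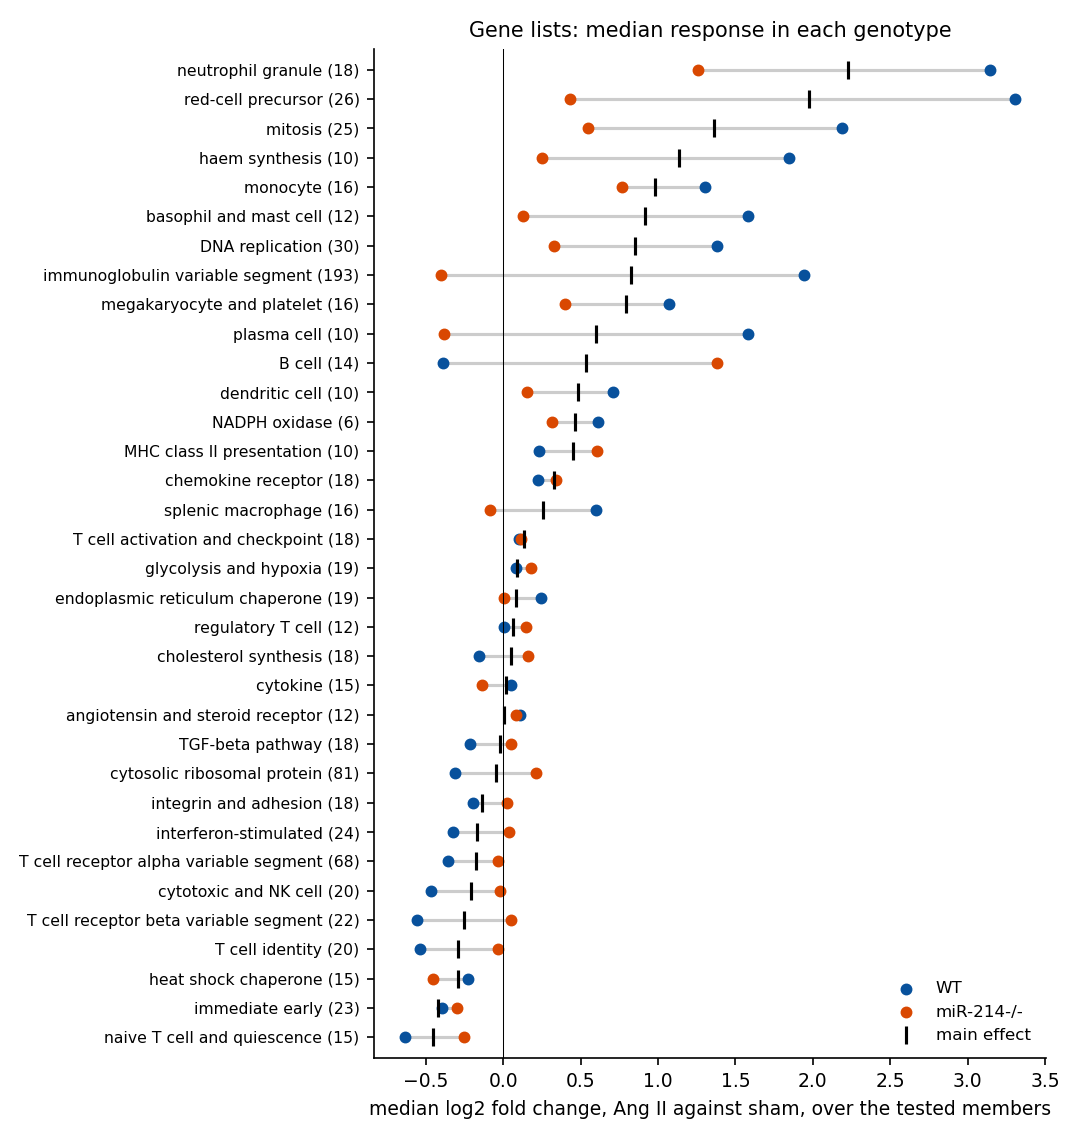
Median log2 fold change after Ang II over the tested members of each of 34 gene lists, with the number of tested members in brackets, in WT (blue) and miR-214-/- (orange) mice and in the main effect (black bar). Neutrophil granule, red-cell precursor and mitosis genes reach 2.19 to 3.31 in WT and 0.43 to 1.26 in miR-214-/- mice, while immediate early genes have like medians, -0.40 and -0.30.

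Lists tied to the study's question in T cells are given beside all genes tested, of which 15.9% passed the adjusted p in either direction. None of these lists was tested as a set. Of 15 cytokine genes tested (20 listed) none was called by edgeR or DESeq2, 4 had an unadjusted p under 0.05 in edgeR and 1 was lower by adjusted p, Il16 at -0.35. Il17a, Il9, Il5, Il13 and Csf2 had too few reads to test. Ifng had a log2 change of -0.47 (adjusted p = 0.079) and Il6, at most 1.34 CPM in any library, one of 0.89 (adjusted p = 0.11). None of 12 angiotensin and steroid receptor genes passed the adjusted p by edgeR or DESeq2, and 3 had an unadjusted p under 0.05 in edgeR. Agtr1a, the type 1 angiotensin receptor, stood at 3.41, 8.13 and 6.69 CPM in WT Ang II against 0.26 to 0.82 CPM in WT sham mice, and at 5.29, 1.27 and 0.31 CPM against 0.29 to 3.02 CPM in miR-214-/- mice. WT groups were apart and miR-214-/- groups overlapped, and the main effect was 1.94 ± 0.84 (SE, adjusted p = 0.13). Chemokine receptors were higher by adjusted p in 3 of 18 cases (Ccr1, Ccr2 and Ccr8) and lower in 1 (Ccr9), with a median of 0.33 and 14 of 18 above 0. TGF-beta pathway genes were lower in 3 of 18 cases, beside 7.72% of all genes, regulatory T cell genes were higher in 2 of 12, beside 8.16%, and the activation and checkpoint list split evenly, with 2 higher and 2 lower of 18.

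Lists of B lineage cells had medians of opposite sign in the 2 genotypes, a difference that was not tested at the level of the list. B cell genes had medians of -0.39 in WT and 1.38 in miR-214-/- mice, and plasma cell genes 1.58 and -0.38, with 0 of 14 and 0 of 10 called by edgeR or DESeq2 and 0 and 0 at an unadjusted p under 0.05 in edgeR. The B cell level, as mean log2(CPM + 1), was 5.56, 3.53 and 3.97 in WT sham, 4.34, 4.66 and 4.19 in WT Ang II, 3.13, 3.99 and 3.51 in miR-214-/- sham and 3.87, 5.83 and 3.33 in miR-214-/- Ang II libraries, so WT sham replicate 1 and miR-214-/- Ang II replicate 2 stood highest and the groups overlapped. The interaction had an unadjusted p under 0.05 in 2 of the 14 B cell and 2 of the 10 plasma cell genes, beside 14.8% of all genes. Of 193 immunoglobulin variable segments, 1 was called higher, beside 2.82% of all genes, with medians of 1.95 and -0.40. These near-identical segments share reads, and their sums ranged from 242.7 to 6385 CPM between libraries.

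The lists not yet described held 0 to 2 called genes each. Megakaryocyte and platelet genes were higher by adjusted p in 7 of 16 cases, beside 8.16% of all genes, with 2 called (Pf4 at 1.02 and Treml1 at 1.26) and medians of 1.07 and 0.40. Basophil and mast cell genes had 2 of 12 called, Mcpt8 at 1.53 and Ms4a2 at 1.05, and haem synthesis genes 2 of 10, Alas2 and Fech, shares above the 2.82% of all genes. Glycolysis and hypoxia genes were higher by adjusted p in 6 of 19 cases, from Pgk1 at 0.31 to Hk2 at 0.99, and the median over all 19 was 0.09. Of 24 interferon-stimulated genes Rsad2 alone was called, and of 18 integrin and adhesion genes Itgam alone, at 1.05. Cytotoxic and NK cell genes were lower in 3 of 20 cases and higher in 1, beside 7.72% and 8.16% of all genes. Variable segments of the T cell receptor were lower in 1 of 68 alpha and 2 of 22 beta segments, and 2 of 81 cytosolic ribosomal protein genes were higher. Endoplasmic reticulum chaperones had 1 gene in each direction of 19. Splenic macrophage, dendritic cell, MHC class II and cholesterol synthesis genes had 0 of 16, 0 of 10, 0 of 10 and 0 of 18 past the adjusted p in edgeR. At an unadjusted p under 0.05 the numbers were 0, 2, 1 and 0, and DESeq2 put 0, 2, 1 and 0 past the adjusted p.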

How the data were processed

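Poly(A)-selected stranded libraries of splenic T cells, 3 per group, were sequenced in paired ends. The authors deposited a table of raw read counts per Ensembl gene, made with featureCounts (Subread 1.5.2, per the labels) on GRCm38. Strand setting and annotation release of the counting are not given in the sources used here. The table held 49315 genes, of which 48970 were matched to a symbol in GENCODE vM21, whose coordinates were used, and 30192 had at least 1 count. Unmatched genes held 0.0705% of counts. No rows or columns were averaged. Of 12 pairs of libraries within groups, 0 held identical values.

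Genes were kept by edgeR's filterByExpr over the 4 groups, leaving 16770, and scaled by TMM. The model held genotype and treatment (edgeR 4.0.16, glmQLFit and glmQLFTest, R 4.3.3) with Benjamini-Hochberg adjustment over all genes tested. A 4-group fit gave the change in each genotype, its 95% interval and the interaction. Calls needed both an adjusted p below 0.05 and a fitted log2 change beyond 1 in either direction. Named genes were the 12 per direction with the largest smaller change of the 2 genotypes (average log2 CPM over 1, adjusted p under 0.05, same sign), the 4 largest called, and up to 4 members per list. Results for a few genes that these rules name are not reported here. E2f2, Copg2, Mib2 and Ipcef1, the 4 smallest p, were chosen after their values were seen, as were the promoter stretches printed. The members, the 34 gene lists and the motifs were chosen with earlier results of these data known, and no list was tested as a set. Promoters were those of RefSeq on GRCm38.p6, searched over the 250 bases before the start. Steps were tested on simulated data. DESeq2 1.42.0, the study's tool, was an alternative. With 3 mice a group and 21126874 to 29605988 counts per library, precision is limited by the number of mice, and how far depth limits genes of few counts was not tested.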

Additional observations from a re-analysis of the deposited data

Results flagged for a closer look

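The 25 named genes and 34 list levels were examined for a library standing apart from the other 5 of its treatment, as the gap to its neighbour divided by the range on the log2(CPM + 1) scale, against Dixon's 95% critical value for 6 samples. In 118 such sets of 6 libraries, 7 were past the limit, and 6 of the 7 were sham libraries. Each set pools the 2 genotypes and the sets are not independent, so no rate by chance can be set beside this count. WT sham replicate 1 was high for E430024P14Rik (0.727) and stood apart for the cytokine (0.649), B cell (0.647) and MHC class II (0.749) lists. miR-214-/- sham replicate 3 stood apart for Olfm4 (0.72), miR-214-/- sham replicate 2 for the interferon-stimulated list (0.638) and miR-214-/- Ang II replicate 2 for ribosomal protein genes (0.626). The globin genes were not among them, since the high libraries come as a pair.

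For 2 lists every Ang II mouse of one genotype lay on one side of its sham mean and every Ang II mouse of the other genotype on the opposite side. Endoplasmic reticulum chaperones moved by 0.243 in WT and by -0.0748 in miR-214-/- mice, and cholesterol synthesis genes by -0.152 and 0.213, as differences of mean log2(CPM + 1). These differences were not tested at the level of the list. Gene by gene, the interaction had an unadjusted p under 0.05 in 10 of 19 chaperone and 3 of 18 cholesterol synthesis genes, beside 14.8% of all genes tested.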

How the results depend on the processing

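Against 473 higher, 29 lower and 157 called genes that did not overlap in either genotype, DESeq2, RLE scaling, library totals, no filter, the average of the genotype contrasts, adjusted deviances and the robust fit each stayed within 1.5 times, from 416 to 645, 22 to 32 and 152 to 173. The DESeq2 counts were 645 and 25, of which 450 and 21 were among the genes called by edgeR. A minimum of 10 counts in every library left 13 lower genes. The adjusted p alone gave 1368 higher, 1294 lower and 1306 without overlap, so the share of higher calls went from 94.2% to 51.4%. Testing against a 2-fold change (edgeR's glmTreat) gave 0, 0 and 0, beside 270 higher and 5 lower at an unadjusted p under 0.05. The mean red-cell level as a covariate, which is itself higher in Ang II mice, left 0 higher, 2 lower and 0 without overlap in edgeR, with 210 higher and 175 lower genes past 2-fold at an unadjusted p under 0.05. In that fit the 12 named lower genes kept changes of -0.78 to -2.80, with adjusted p from 0.062 to 0.11, and the median of the mitosis list became 0.40. The red-cell list is the covariate itself.

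Replicate numbers did not pair the mice: 7 of 18 same-numbered pairs correlated over 0.1, with a range of -0.641 to 0.407. The replicate block gave 282 higher, 29 lower and 144 without overlap, and nested in genotype 69, 14 and 71. Leaving out 1 library gave 132 to 761 higher, 16 to 41 lower and 121 to 326 without overlap. The higher count moved by over 1.5 times without WT sham replicates 1, 2 and 3 (202, 132 and 188), WT Ang II replicates 1 and 3 (282 and 221) and miR-214-/- Ang II replicates 1 and 3 (284 and 761). The lower count did so without WT Ang II replicate 3 (16), and the count without overlap did so without miR-214-/- sham replicate 3 (313) and miR-214-/- Ang II replicates 2 and 3 (259 and 326). The pair of globin-rich libraries, left out after seeing the data, gave 439, 57 and 218. The cause of these moves was not tested. Over 597 refits of named genes, 465 kept their side of the threshold, 132 lost it and 0 changed sign, and 24 of 816 list medians moved by more than the spread between replicates.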
